A study of Rosa hybrid cultivar with 12 samples.

Results

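Auxin and sucrose moved a small set of rose bud genes the same way, although most genes that both agents moved went in opposite directions. The set held 89 genes of the 42307 listed. It was made of 64 genes that were higher both with auxin and with more sucrose (the higher genes) and 25 that were lower with both (the lower genes). By the same rule with the signs opposed, 3129 genes moved oppositely, 1684 of them higher with auxin and lower with sucrose and 1445 the other way round. The genes that moved alike were thus 2.77% of all genes that the rule placed in any of these 4 sets.

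Libraries of polyA-selected, strand-marked RNA came from flower buds, per the labels, of a wild-type Rosa hybrid cultivar. Since budburst is named in the series title, the kind of bud is not settled. NAA, a synthetic auxin, was given at 1 µM or left out. The 4 groups received NAA on top of 100 mM sucrose, 100 mM sucrose without it, NAA on top of 10 mM sucrose, or 10 mM sucrose without it, and each had 3 libraries. Every group received sucrose, so the sucrose comparison is of a higher with a lower dose. Libraries of the same number shared a harvest date, 20 June, 20 August or 20 October. In the June set the labelled planting dates differed between all 4 groups and fell on 2 August, 2 July, 2 June and 2 May in the order just given, so planting date and treatment cannot be told apart there. For 6 of the 12 libraries the labels put planting later than harvest.

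Auxin moving down from the shoot tip is known for holding side buds dormant, a part of apical dominance, while sucrose is both a carbon source and a signal that favours bud outgrowth. In rose and in other plants the agents are studied as antagonists of bud break. Genes that respond alike to both are described here by RNA level only, and their link to bud break was not tested. The files give gene IDs without names or functions, and no table of names was used here, so no role is given to a member, and genes are described by their levels, their IDs and their behaviour.

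Members were chosen from the measured values. Levels are CPM, that is, counts relative to the TMM-scaled size of each library, and were turned into log2(CPM + 0.5). The average auxin difference was the mean of 6 differences between libraries with and without NAA at the same sucrose dose and harvest date. The average sucrose difference was the mean of 6 differences between 100 and 10 mM at the same NAA level and date. A member had a mean of 2 to 700 CPM, which 19257 genes had, both averages at least 0.4 in size in the same direction, and at least 5 of the 6 differences of each in that direction. Because these values chose the genes, the auxin and sucrose differences below are a description and were not tested, and fold changes on this scale understate those of low genes.

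**Figure D1:**
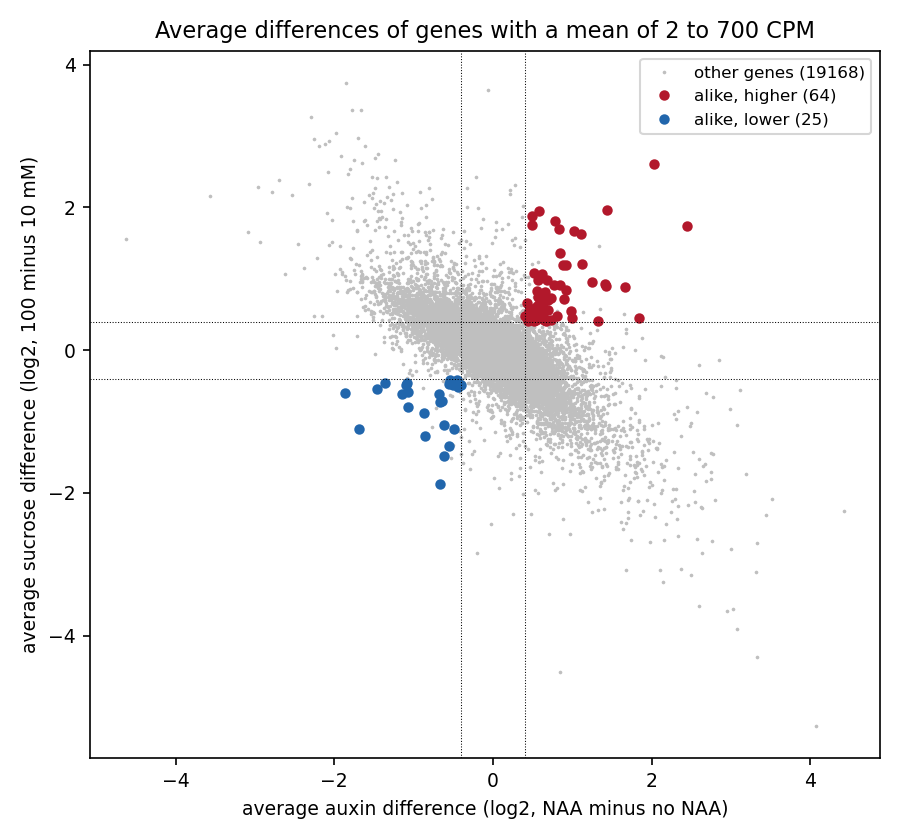
Average auxin difference (x axis, log2) against average sucrose difference (y axis, log2) for genes with a mean of 2 to 700 CPM, with dotted lines at 0.4 and -0.4. The cloud of other genes runs from upper left to lower right, and the 64 higher and 25 lower genes stand in the 2 corners away from it.

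The libraries held 7369267 to 16757019 gene counts. All 89 members passed the low-count filter of the tests below. Their total counts over the 12 libraries ran from 302 to 71750 with a median of 1321, and 74 members had at least 10 counts in every library. Replicate 1 of 10 mM sucrose with NAA stood apart, with a TMM factor of 0.746, against 0.976 to 1.10 in the others, and 24.9% of its counts in its 100 most counted genes, against 14.1% to 16.9%. The rule gave 58 higher and 24 lower genes without that library, of which 39 and 16 were among the 64 and the 25. In bulk tissue, fewer cells of a type and less RNA per cell cannot be told apart.

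The size of the differences was modest for most members. Among the 64 higher genes the median was 0.66 for auxin, a 1.58-fold difference, with a range of 0.41 to 2.45, and 0.70 for sucrose, with a range of 0.41 to 2.61. Among the 25 lower genes the median was -0.67 for auxin and -0.61 for sucrose, and the lowest values were -1.86 and -1.87. Over the 19257 genes in the same range of levels, both medians were 0.00. Only 6 higher genes and 1 lower gene had both averages at least 1 in size. The averages lay close to the threshold in many others, since the smaller of them was under 0.5 in size for 26 higher and 10 lower genes. The last 3 members inside the threshold had smaller averages of 0.407, 0.406 and 0.406, and the first 3 genes outside it had 0.3995, 0.3986 and 0.3984.

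Members were somewhat less abundant than other genes of the same range. Mean levels had a median of 9.48 CPM for the higher and 7.84 CPM for the lower genes, against 17.4 CPM for all 19257. A mean under 10 CPM was found in 51.6% of the higher and 56% of the lower genes, against 35.8%. Another 4 higher and 3 lower genes exceeded 100 CPM, and the most abundant member averaged 537.1 CPM and belonged to the lower genes.

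The gene with the largest joint difference among those with all 12 differences in the same direction was gene:RC1G0323600. It stood at 57.1, 43.2 and 26.0 CPM in the June, August and October libraries of 100 mM sucrose with NAA, at 13, 9.06 and 6.60 CPM with 100 mM sucrose alone, at 27.3, 13.9 and 9.33 CPM with 10 mM sucrose and NAA, and at 2.67, 1.56 and 1.16 CPM with 10 mM sucrose alone. No library with NAA or with 100 mM sucrose was as low as any library of 10 mM sucrose alone, and within each date the group with both raised was the highest. Its average difference was 2.45 ± 0.468 for auxin and 1.75 ± 0.460 for sucrose (log2, SD over 6 same-date differences).

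Next came gene:RC6G0491100, for which sucrose made the larger difference. It had 125.9, 107.5 and 58.2 CPM in June, August and October with 100 mM sucrose and NAA, 50.2, 39.8 and 26.1 CPM with 100 mM sucrose alone, 39.3, 30.8 and 14 CPM with 10 mM sucrose and NAA, and 13.4, 6.32 and 6.61 CPM with 10 mM sucrose alone. The group with both raised did not overlap any other group, and neither did the group with neither raised. The averages were 1.44 ± 0.413 for auxin and 1.97 ± 0.315 for sucrose (log2, SD over 6 differences).

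Of the lower genes, gene:RC1G0496100 had the largest joint difference by the same rule. Its levels were 0.312, 1.15 and 2.31 CPM with 100 mM sucrose and NAA, 2.86, 3.72 and 4.98 CPM with 100 mM sucrose alone, 2.00, 2.38 and 2.66 CPM with 10 mM sucrose and NAA, and 8.95, 16.4 and 7.4 CPM with 10 mM sucrose alone, in June, August and October. The level with 10 mM sucrose alone exceeded every library of the other groups, while the group with both raised overlapped that of 10 mM sucrose with NAA. The averages were -1.69 ± 0.583 for auxin and -1.10 ± 0.711 for sucrose (log2, SD over 6 differences). The lowest library held 3 counts.

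Smaller and more even differences were those of gene:RC7G0234400. It had 3.85, 3.14 and 4.31 CPM with 100 mM sucrose and NAA, 6.59, 6.88 and 7.47 CPM with 100 mM sucrose alone, 4.0, 9.24 and 9.33 CPM with 10 mM sucrose and NAA, and 14.7, 15.5 and 11.3 CPM with 10 mM sucrose alone, in June, August and October. Again the libraries of 10 mM sucrose alone lay above all others, and the low value among those with 10 mM sucrose and NAA was the June library that stood apart. Its averages were -0.87 ± 0.498 for auxin and -0.88 ± 0.490 for sucrose (log2, SD over 6 differences).

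**Figure D2:**
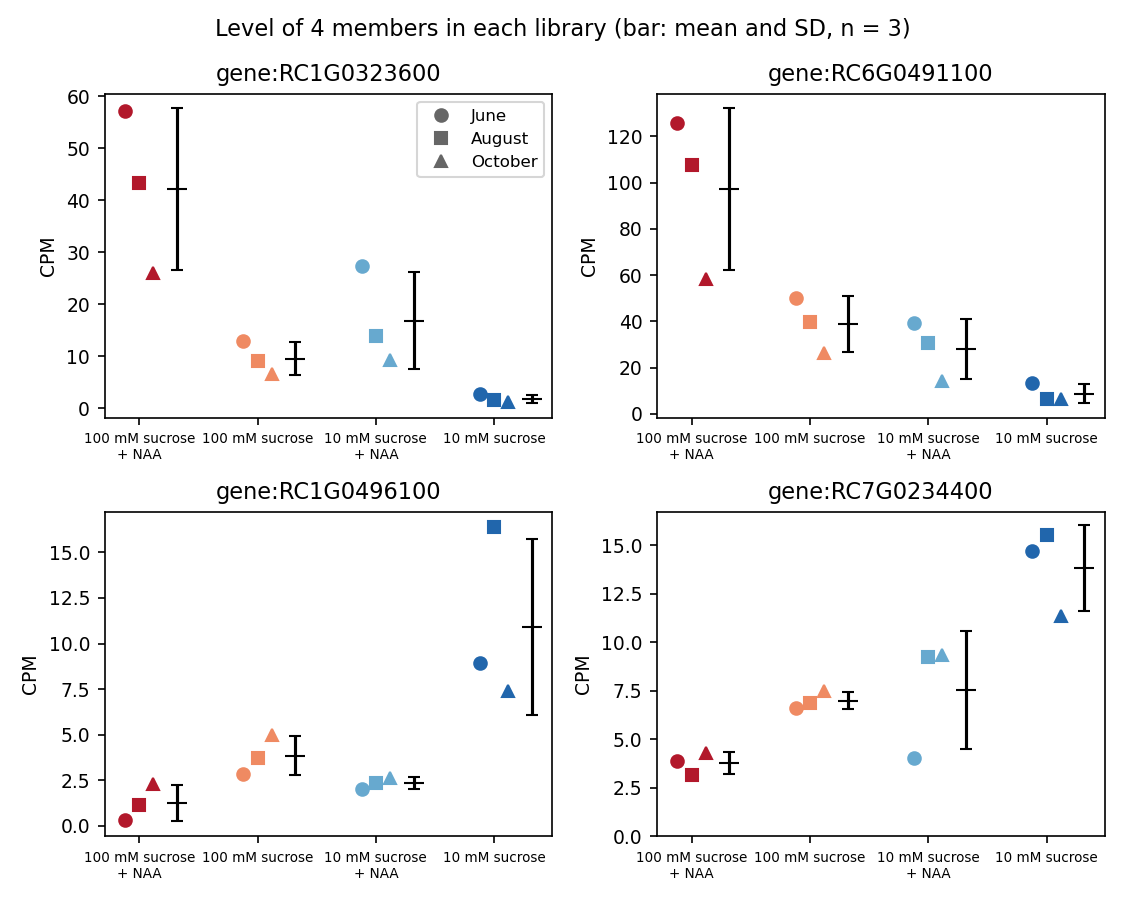
Level in CPM (y axes) of the 4 named members in each library of the 4 treatments, with symbols for the harvest month and bars for the mean and SD of 3 libraries. For the upper pair the libraries of 10 mM sucrose alone are the lowest, at 1.16 to 2.67 and 6.32 to 13.4 CPM, and for the lower pair they are the highest, at 7.4 to 16.4 and 11.3 to 15.5 CPM.

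Seen over the whole set, the extremes were the group with both agents raised and the group with neither. By mean log2 level, 100 mM sucrose with NAA was the highest group in 63 of the 64 higher genes and the lowest in all 25 lower genes, and 10 mM sucrose alone was at the other end in all 89. This order follows largely from the rule. Averaged over the 64 higher genes, log2(CPM + 0.5) was 4.53, 4.50 and 3.67 in June, August and October with 100 mM sucrose and NAA, 3.91, 3.59 and 3.02 with 100 mM sucrose alone, 4.01, 3.24 and 3.07 with 10 mM sucrose and NAA, and 2.60, 2.62 and 2.47 with 10 mM sucrose alone. Over the 25 lower genes it was 2.98, 2.63 and 3.21, then 4.02, 3.59 and 3.46, then 3.82, 3.38 and 3.64, and 4.85, 4.41 and 4.47, in the same order of groups and dates. In both sets every library with neither agent raised lay beyond all libraries of the other groups, while the groups given a single raised agent overlapped.

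The groups given a single raised agent stood between, in no fixed order. The level with 100 mM sucrose alone was above that with 10 mM sucrose and NAA in 37 of the 64 higher genes and 14 of the 25 lower genes, and below it in 27 and 11. The 3 libraries of 100 mM sucrose with NAA did not overlap the 3 of 10 mM sucrose alone in 48 of the 64 higher genes and 24 of the 25 lower genes. Among all 19257 genes of this range, 6.72% had 100 mM sucrose with NAA wholly above 10 mM sucrose alone and 10% had it wholly below, and since the rule used this difference the shares are not a test. All 12 differences had the same direction in 22 higher and 7 lower genes, 11 of 12 in 31 and 9, and 10 of 12 in 11 and 9.

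**Figure D3:**
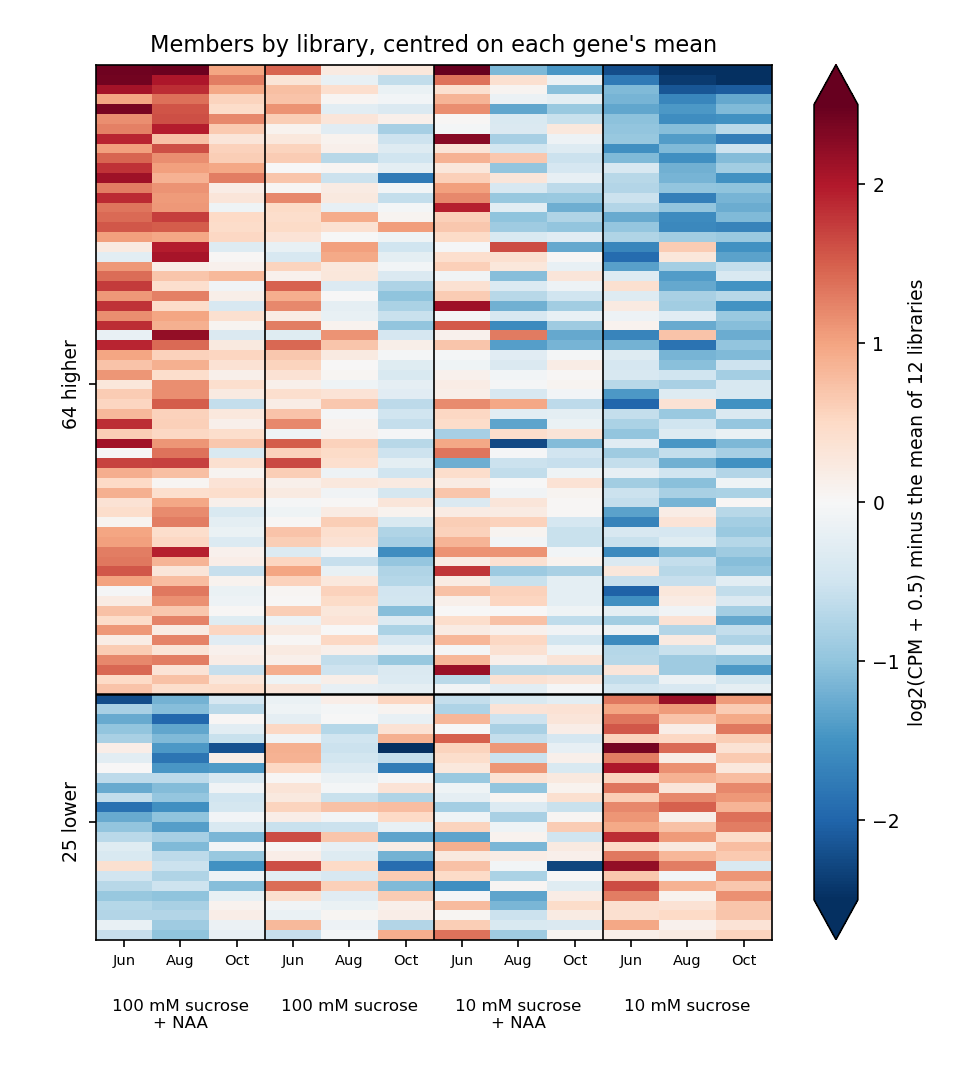
Members in rows and libraries in columns, coloured by log2(CPM + 0.5) minus the gene's mean over 12 libraries. The 64 higher genes are palest or bluest with 10 mM sucrose alone and reddest with 100 mM sucrose and NAA, and the 25 lower genes show the reverse, with weaker contrast in the October columns of the higher genes.

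How far the pattern held from date to date was measured by leaving out each harvest date in turn. The rule itself was set with earlier results of these data known, so this is not an independent check. The rule, with at least 3 of the 4 differences left in the direction, was applied to the other dates, and the genes it gave were looked up in the date left out. In June, 52 of 70 genes chosen as higher were higher with both agents (74.3%), against 14.2% of all genes of this range. In August it was 67 of 80 (83.8%, against 10.9%) and in October 85 of 137 (62.0%, against 11.4%). The median differences in the date left out were 0.95, 0.54 and 0.34 for auxin and 0.65, 0.85 and 0.23 for sucrose in June, August and October.

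Genes chosen as lower held less well in June. There 14 of 32 were lower with both agents (43.8%), against 15.8% of all genes of this range, with a median of -0.41 for auxin and -1.36 for sucrose. In August it was 31 of 40 (77.5%, against 11.7%) and in October 31 of 51 (60.8%, against 11.5%). The auxin and the sucrose difference of a date share the same 4 libraries, so they are not separate evidence. The lists also changed: 36, 49 and 58 of the 64 higher genes, and 12, 20 and 20 of the 25 lower genes, were chosen again without June, August and October.

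Within single dates the differences of the 64 higher genes were largest in June against 10 mM sucrose alone. The median auxin difference at 10 mM sucrose was 1.41, 0.57 and 0.53 in June, August and October, and that of sucrose without NAA was 1.21, 0.80 and 0.37. With the other agent already raised, the medians were 0.54, 0.85 and 0.63 for auxin and 0.53, 1.2 and 0.38 for sucrose. For the 25 lower genes the weakest median was that of auxin at 100 mM sucrose in October, -0.21, with 15 of 25 genes in the direction. These differences chose the members, and in June the planting dates differed as well.

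Whether the effect of each agent depended on the other was a question that the average differences do not answer. The interaction, the auxin difference at 100 mM minus that at 10 mM sucrose, was called for 0 of the 89 members by edgeR's quasi-likelihood test, as for 0% of all 24267 tested genes. At an unadjusted p under 0.05 there was 1 member, where 3.44% of tested genes were, and with harvest date as a block there were 6 members, where 6.93% were. DESeq2 also called 0 members, with 0 at an unadjusted p under 0.05, where it called 1 gene of all tested and had 916 at an unadjusted p under 0.05. The demand for 5 of 6 differences in the same direction favours genes with a small interaction. On the log2 scale the median interaction was -0.16 for the higher and 0.23 for the lower genes, against 0.02 for all genes of this range. It was thus below 0 in 43 of the 64 higher genes and above 0 in 21 of the 25 lower genes. Of all genes of this range, 47.2% were below 0 and 52.8% above. Averaged over the dates, an agent mostly made a smaller difference where the other was already raised. For the higher genes the medians had this order in June only, with 0.54 for auxin at 100 mM and 1.41 at 10 mM sucrose. In August these were 0.85 and 0.57, and in October 0.63 and 0.53. June is the date with differing planting dates and the library that stood apart. For the lower genes the medians had this order at every date for auxin, and in August and October for sucrose. The sign of single interactions was not tested.

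The member with the smallest interaction p in the fit without the block was gene:RC3G0412500. It had 25.0, 25.3 and 8.93 CPM with 100 mM sucrose and NAA, 12.4, 5.02 and 5.23 CPM with 100 mM sucrose alone, 31.8, 1.68 and 1.23 CPM with 10 mM sucrose and NAA, and 0.514, 0 and 0.306 CPM with 10 mM sucrose alone, in June, August and October. It was nearly silent where neither agent was raised and present in every other library. The high value of 31.8 CPM belonged to the library that stood apart. Its interaction was -3.98 (log2, SE 1.76), with an edgeR adjusted p of 0.963, and 0.717 with the block. In the blocked fit the smallest p among members was that of gene:RC1G0323600, with an interaction of -1.03 (log2, SE 0.231) and an edgeR adjusted p of 0.717.

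Harvest date was balanced over the treatments, and its effect was not used to choose members, so it was tested. The rule did, however, demand that most same-date differences share a direction. This favours genes with little spread left after group and date, against which the date tests judge a date effect. Date calls among members may thus be raised by the choice, and their shares against all tested genes are a description. Replicate number, harvest date and labelled planting date change together from set to set, so the date tests cannot tell them apart. A date effect was called for 19 of the 64 higher and 7 of the 25 lower genes by edgeR's F test on the 2 date terms (adjusted p under 0.05), where 5.90% of tested genes were called. October was lower than June in 14 higher genes (21.9%) and 4 lower genes (16%), where 2.39% of tested genes were called lower, and it was higher in 0 members, where 2.10% were. At an unadjusted p under 0.05, edgeR had October higher in 0 higher and 3 lower genes, where 11.2% of tested genes were, and DESeq2 called 0 members higher. The 14 genes differed by -2.46 to -1.0 (log2). All 14 were also lower in August than in June, 6 of them by a call, where 0.676% of tested genes were. Both contrasts share the June libraries, and the 14 were chosen by the first, so this is not separate evidence. Of all genes of this range called lower (497) or higher (488) in October, 895 also had August on the same side of June. The median October minus June difference was -0.67 for the 64 higher genes and 0.10 for the 25 lower genes, against 0.00 for all tested genes. Of the 64, 58 were below 0, where 9487 of all 19257 genes of 2 to 700 CPM were. So were 1449 of the 1684 genes higher with auxin and lower with sucrose, and 237 of the 1445 opposite ones.

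These counts moved with single libraries. Without replicate 3 of 100 mM sucrose with NAA, 4 higher genes and 1 lower gene were called lower in October, where 0.303% of tested genes were, and without replicate 3 of 10 mM sucrose with NAA 8 and 2 were, where 0.704% were. Without replicate 1 of 100 mM sucrose with NAA they were 9 and 2, where 0.577% were. DESeq2 called 26 and 4, where 4.03% were, and no setting called a member higher in October. The date F test, which called 26 members in all, called 11, 17 and 15 without replicate 3 of 100 mM sucrose with NAA, replicate 3 of 10 mM sucrose with NAA and replicate 2 of 10 mM sucrose alone, where 1.01%, 1.83% and 2.63% of tested genes were called.

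A date effect was not particular to genes moved alike. It was called for 15.6% of the 1684 genes higher with auxin and lower with sucrose and for 14.6% of the 1445 genes that went the other way, against 29.7% of the 64 higher and 28% of the 25 lower genes. October was called below June in 13.1% of the 1684 genes and 0.0692% of the 1445, and above June in 0.297% and 12% of them, against 0 members. The difference between these shares was not tested.

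Over the 64 higher genes, the October minus June difference was smaller in size with 10 mM sucrose alone than in the other groups. Within groups, the median October minus June difference of the 64 genes was -0.83 with 100 mM sucrose and NAA, -0.81 with 100 mM sucrose alone, -0.77 with 10 mM sucrose and NAA, and -0.16 with 10 mM sucrose alone. The genes below 0 numbered 61, 58, 54 and 36 of 64 (95.3%, 90.6%, 84.4% and 56.2%), where 48.6%, 48.9%, 45.8% and 50.6% of all genes of this range were. On average the 14 genes called lower in October were lower with 10 mM sucrose alone too, with mean log2 levels of 2.78, 2.00 and 1.84 in June, August and October there, while the other 50 higher genes had 2.55, 2.79 and 2.64. These 14 were chosen by the same contrast. Gaps between groups in October minus June equal changes between these dates in the auxin and sucrose differences that chose the genes. They are thus not separate from the rule. Largely by the rule, 10 mM sucrose alone was also the lowest group, and fold changes on this scale understate those of low genes. Whether this made the difference smaller there was not tested. With 1 library for each group and date, the difference between groups could not be tested.

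**Figure D4:**
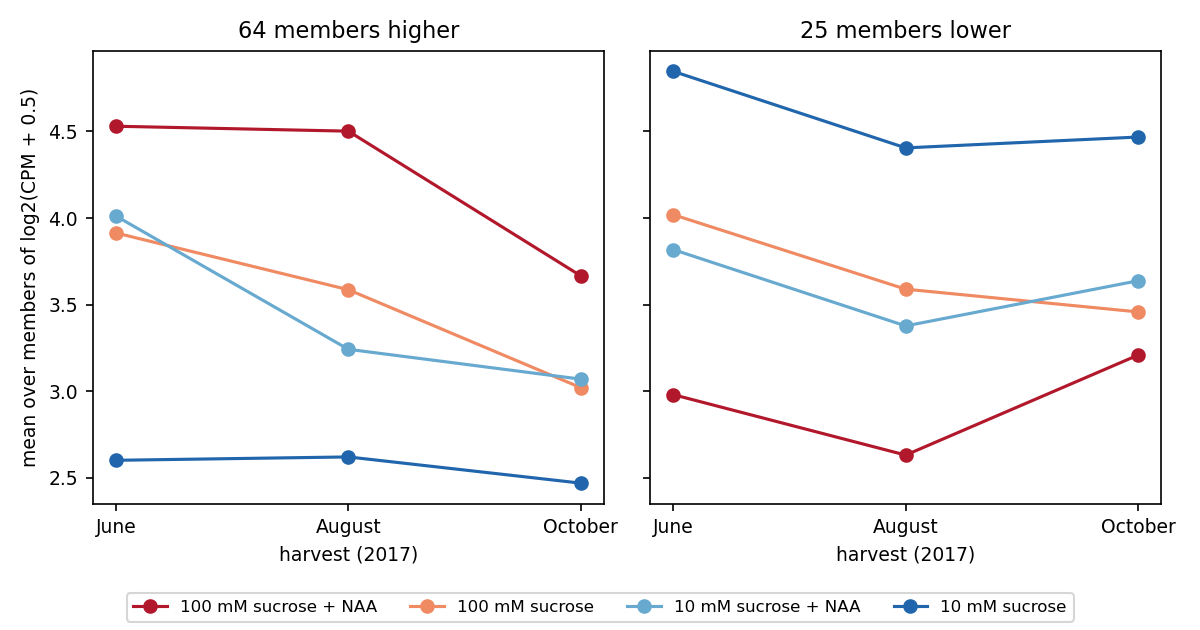
Mean over members of log2(CPM + 0.5) (y axis) by harvest month of the same year (x axis), with a line for each treatment, for the 64 higher genes (left) and the 25 lower genes (right). In the left panel 3 lines come down to between 3.02 and 3.67 in October and the line of 10 mM sucrose alone stays between 2.47 and 2.62.

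The largest date effect by the naming rule was that of gene:RC6G0128900, a lower gene. Its levels were 6.24, 3.01 and 1.29 CPM in June, August and October with 100 mM sucrose and NAA, 15.2, 6.72 and 0.871 CPM with 100 mM sucrose alone, 8.01, 4.36 and 0.545 CPM with 10 mM sucrose and NAA, and 22.9, 12.0 and 3.43 CPM with 10 mM sucrose alone. The order of months was the same in all 4 groups. October minus June was -3.06 (log2, SE 0.269, edgeR adjusted p = 0.000797). The higher genes described first were also lower in October than in June. October minus June was -1.23 for gene:RC1G0323600 (log2, SE 0.139, edgeR adjusted p = 0.00197) and -1.13 for gene:RC6G0491100 (log2, SE 0.169, edgeR adjusted p = 0.00816). Only gene:RC6G0491100 lost its call when a library was left out, namely replicate 3 of 100 mM sucrose with NAA (edgeR adjusted p = 0.0591).

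Another 10 members had a date effect by the F test without a call between October and June. In 6 of them, all higher genes, August was above June, and in the other 4, all lower genes, August was below June. These 4 lower genes belonged to the run of IDs described next.

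Some members lay near each other in the list of gene IDs. Of the 25 lower genes, 7 had another lower gene within 5 IDs (28%), while 0.556% of all genes of this range did. Of the 64 higher genes, 9 had another higher gene within 5 IDs (14.1%), against 1.59%. The IDs run in the order of the files, and the files give no coordinates, so nearness on a chromosome is not shown. Without sequences it was not tested whether neighbours are near-identical copies, among which reads could be split or lost.

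The longest such run, chosen after its values were seen, was 5 consecutive IDs from gene:RC0G0063800 to gene:RC0G0064200, all of them lower genes. Their summed level was 20.4, 19.4 and 37.8 CPM in June, August and October with 100 mM sucrose and NAA, 55.7, 33.8 and 63.1 CPM with 100 mM sucrose alone, 42.8, 19.3 and 47.7 CPM with 10 mM sucrose and NAA, and 109.6, 47.0 and 103.1 CPM with 10 mM sucrose alone. Within each date the group with neither agent raised was the highest, and the August libraries were the lowest of their group in all 4 groups. Group means were 25.8 ± 10.4 CPM, 50.9 ± 15.2 CPM, 36.6 ± 15.1 CPM and 86.6 ± 34.4 CPM in the same order (SD, n = 3).

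The last of the 5 genes, gene:RC0G0064200, made up 42.9% to 54.0% of the summed level across libraries, and the first, gene:RC0G0063800, made up 10.7% to 16.5%. The share was 16.5% to 26.7% for gene:RC0G0063900, 6.63% to 11.2% for gene:RC0G0064000 and 2.96% to 7.23% for gene:RC0G0064100. Their average auxin differences ran from -1.15 to -0.56 and their sucrose differences from -0.80 to -0.45. The date F test called 4 of the 5 (edgeR adjusted p of 0.0111 to 0.0488), and the fifth had 0.0745. Leaving out single libraries gave 1 to 4 calls, with 1 without replicate 3 of 100 mM sucrose with NAA and without replicate 2 of 10 mM sucrose alone.

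A pair of IDs close to the run lay outside the rule, with sucrose differences smaller in size than 0.4. Auxin and sucrose differences were -1.08 and -0.40 for gene:RC0G0063600 and -1.06 and -0.31 for gene:RC0G0064600. The date F test had an edgeR adjusted p of 0.0189 for gene:RC0G0063600 and 0.341 for gene:RC0G0064600. The other 4 IDs between these ends averaged under 1 CPM. All 7 IDs of the stretch that reached 2 CPM thus had averages below 0 for both agents. Since 5 of them were chosen for this and the ends of the stretch were set at this pair, the count is not a test.

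**Figure D5:**
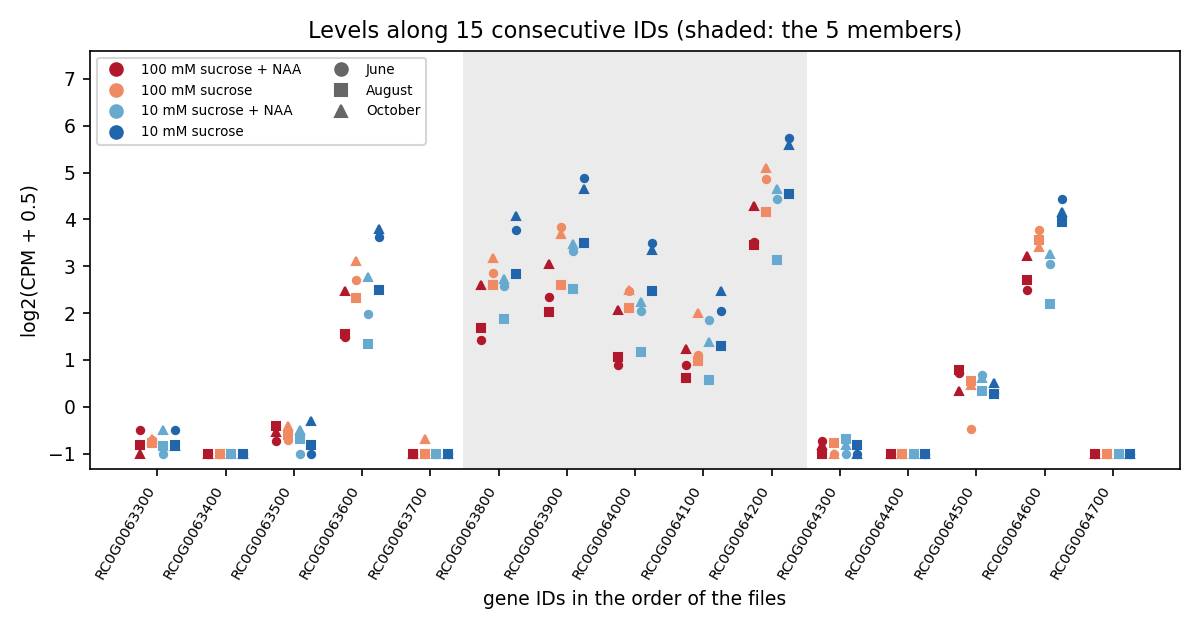
Level as log2(CPM + 0.5) (y axis) of 15 consecutive gene IDs in the order of the files (x axis), with a point for each library, coloured by treatment and shaped by harvest month. In the shaded run of 5 members, the point of 10 mM sucrose alone is the highest within each harvest month, and those of 100 mM sucrose with NAA are at or near the bottom.

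The other groups of neighbours were smaller. A pair of adjacent higher genes had sucrose differences of 1.69 and 1.81 with auxin differences of 0.83 and 0.78. Another pair of higher genes, 2 IDs apart, shared a fall from June to October, at -2.28 and -2.13, both called by the date F test. A pair of lower genes 2 IDs apart had auxin differences of -1.46 and -1.36 and sucrose differences of -0.55 and -0.46. By the digit that follows RC in the ID, 6 of the 25 lower genes (24%) began with RC0, 5 of them in the run, against 4.96% of all genes of this range and 3 of the 64 higher genes.

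Reads on the strand opposite to the gene were rare in members. The forward column held a median of 0.173% of the stranded counts of the higher and 0.0840% of those of the lower genes, against 0.151% for all genes of this range. Over 10% was found in 2 higher genes, at 23.2% and 24.7%, and in 0 lower genes, against 1.16% of all genes of this range. For those 2, reads of an overlapping gene on the other strand may be present, and this was not tested.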

How the data were processed

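The authors deposited raw counts per gene, 1 file per library. Each has 3 count columns (strand ignored, forward and reverse), per the file headers. The reverse column was used, since forward counts made up 3.37% to 5.00% of both. TopHat2 and Bowtie2 are named in the submitters' processing notes, and their versions, the genome build and the annotation were not stated. The 4 summary rows (17.3% to 23.2% of reads) were left out.

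Tests used R 4.3.3 with edgeR 4.0.16: filterByExpr (minimum count 10, minimum total 15; 24267 genes kept), TMM scaling from these genes, and quasi-likelihood fits on all 12 libraries with a mean per group, plus harvest date for date tests and blocked fits. P-values were adjusted over all tested genes (Benjamini-Hochberg), and under 0.05 was called. Each SE is the size of the log2 estimate divided by the square root of its quasi-likelihood F. DESeq2 1.42.0 was an alternative. Scripts were tested on simulated data.

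The labels give same-numbered libraries the same harvest date, which pairs them. Over 18 same-date pairs, the deviations of log2 CPM from the means of their groups had a mean correlation of 0.342 (0.0225 to 0.688, 15 above 0.1). Nothing in the labels says that replicates came from separate plants, so p-values measure the spread between these libraries.

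Members, rules and tests were chosen with earlier results of these data known. Named were the 2 higher and 2 lower members with the largest smaller average among those with all 12 differences in the direction, the member with the largest called change from June to October in each direction, and the member with the smallest interaction p. The series text speaks of 2 biological replicates, and the titles, which number 3, were followed.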

Additional observations from a re-analysis of the deposited data

How the results depend on the processing

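The number of members depended on the rule more than on the scaling. DESeq2 size factors, TMM factors from all gene rows (an alternative added after seeing the data) and the unstranded column gave 68, 60 and 61 higher genes, of which 61, 59 and 57 were among the 64, and 24, 26 and 31 lower genes, of which 24, 24 and 24 were among the 25. All 6 of 6 differences left 22 and 7. A threshold of 0.3 gave 98 and 38 and a threshold of 0.5 gave 38 and 15, both added after seeing the data. A pseudocount of 2 CPM gave 45 and 19, and no bounds on mean CPM gave 94 and 32. Leaving out single libraries gave 46 to 105 higher and 24 to 46 lower genes. Without June, August and October there were 70, 80 and 137 higher and 32, 40 and 51 lower genes. The cause was not tested.

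The interaction was called for 0 members under every setting run, with the replicate block (0), DESeq2, other scaling, no filter, the unstranded column and each library left out. The date F test called 26 members, 44 by DESeq2 and 11 to 35 with libraries left out. Of all tested genes it called 5.90%, 11.3% by DESeq2, and 1.01% and 7.72% where 11 and 35 members were called. October was called below June in 18 members, 30 by DESeq2 and 5 to 21 with libraries left out. Below June were 2.39% of tested genes, 4.03% by DESeq2, 0.303% where 5 members were called, and 2.72% or 4.53% where 21 were. October was called above June in 0 members under all of these settings. With all 12 libraries, edgeR called 2.10% of tested genes above June. The average differences of the 4 named members stayed within 1 SD of the reported values under every alternative run. This SD is that of the same differences that were averaged. Leaving out a library or a date could therefore hardly move an average by more, and for those settings the result is not a check. The other alternatives, in scaling, pseudocount and count column, were not bound in this way. Depth limits the rarest members, the least counted of which had 302 counts over 12 libraries.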
